A study of Mus musculus with 12 samples.

Results

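The 10 genes described here encode secreted signals: the bone morphogenetic proteins Bmp2, Bmp3, Bmp4, Bmp5, Bmp6, Bmp7, Bmp8a and Bmp8b, and the stress-induced hormones Gdf15 and Fgf21. They were chosen by name, and all 10 were found among the 47729 genes of the deposited tables. Bmp8a and Bmp8b lie on chromosome 4 and Bmp2 and Bmp7 on chromosome 2, and each of the other 6 has a chromosome to itself. Every one is protein coding, in the GENCODE M21 annotation of GRCm38. RNA was measured by sequencing in 12 libraries of mouse fat, 3 from each of 4 depots. The brown depot was the fat from between the shoulder blades (BAT), and 3 were white, the epididymal (EWAT), inguinal (IWAT) and retroperitoneal (RWAT) pads. The mice were wild type C57BL/6J males aged 6 to 10 weeks that ate low-fat standard chow. Every tissue had been denervated by surgery and no innervated tissue was analysed here, so depot was the only factor and an effect of denervation could not be measured. Whether each library came from its own animal is not stated in the labels, so a p-value here reflects the spread of these 3 samples per depot, part of which may be technical.

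Bone morphogenetic proteins (BMPs) belong to the transforming growth factor beta family. A BMP dimer brings together type I and type II serine/threonine kinase receptors, which phosphorylate SMAD proteins that move to the nucleus and switch on targets such as the Id genes. In fat, Bmp2 and Bmp4 are known for committing mesenchymal precursors to the adipocyte lineage, Bmp7 for brown adipocyte formation and Bmp8b for the thermogenic response of brown fat. Gdf15 is a distant member of the same family that signals through the brainstem receptor Gfral to reduce food intake. Fgf21 is a fibroblast growth factor made mainly by liver that acts on fat through the receptor Fgfr1 and its co-receptor beta-Klotho (Klb). Both hormones are targets of the integrated stress response.

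Libraries held 15699912 to 25633413 estimated counts. Mitochondrial genes took 3.28% to 18.99% of them, and the TMM scaling factors of edgeR ran from 0.615 to 1.23. Levels of the 10 genes across libraries are therefore mostly given as TMM-scaled CPM, counts per 1000000 counts of the library. TPM, the corresponding share of transcripts with gene length taken into account, are used to rank genes within a library. Where TPM are given across libraries, they are not TMM-scaled. Some libraries stood apart from others of their depot. Summed over 12 skeletal muscle markers, the level was 19711, 13984 and 2309 CPM in BAT 1 to 3 and 16707 in RWAT 3, against 16.7 to 79.9 in the other 8 libraries. Summed over 10 epididymis markers it was 1415 CPM in EWAT 1 and at most 7.15 elsewhere, and 8, 9 and 7 of the markers were at 0 in all libraries of BAT, IWAT and RWAT. Brown adipocyte markers summed to 5753, 263 and 1358 CPM in BAT, so that BAT 2 lay below IWAT 1 (327.8) and IWAT 2 (487) in the sum. Of the single markers, Ucp1, Cidea, Cox8b and Cpt1b were lower in BAT 2 than in both. Cox7a1, Zic1 and Lhx8 were higher than in both, with Lhx8 at 14.3 CPM against 2.19 and 4.15, and the others lay between. In bulk tissue, fewer cells of a type and less RNA per cell cannot be told apart.

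All 10 genes were of low abundance. Bmp3 had the highest mean, 4.07 ± 3.14 TPM (SD, n = 12 libraries), followed by Gdf15 with 3.94 ± 3.82, Bmp6 with 2.96 ± 0.925, Bmp2 with 1.82 ± 0.772 and Bmp4 with 1.58 ± 0.65. Bmp7, Bmp5, Bmp8b, Fgf21 and Bmp8a averaged 0.631, 0.462, 0.403, 0.229 and 0.203 TPM. Which gene led depended on the library: Bmp3 was the most abundant of the 10 in 6 libraries and Gdf15 in the other 6. Bmp3 led in all BAT libraries, IWAT 1, IWAT 2 and RWAT 1, and Gdf15 led in all EWAT libraries, IWAT 3, RWAT 2 and RWAT 3. The summed TPM of the BMP genes ran from 7.81 in EWAT 3 to 18.97 in RWAT 1, and Bmp3 supplied between 7.04% of it, in EWAT 3, and 58.1%, in IWAT 1. These sums are not TMM-scaled, so they do not rank the libraries by level.

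**Figure D1:**
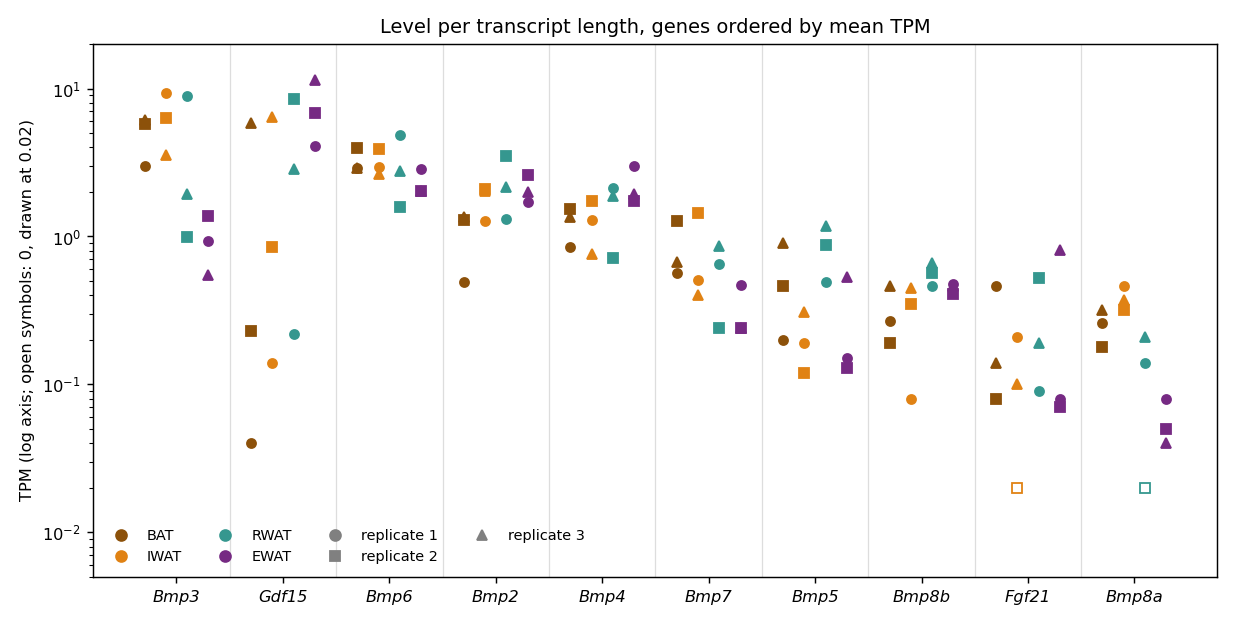
Level of each gene in each of the 12 libraries in TPM on a log axis, with colours for depots, symbols for replicate numbers and open symbols for values of 0. Gdf15 runs from 0.04 to 11.3 TPM and Bmp3 from 0.55 to 9.38, while Bmp6 stays between 1.57 and 4.88.

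The genes differed in how much they varied between libraries. The SD of log2 CPM over the 12 libraries was 2.08 for Gdf15, at percentile 98.0 of the 19154 genes tested, and 1.59 for Bmp3, at percentile 94.3. It was 1.19 for Bmp7 and 1.03 for Bmp5, against 0.40 for Bmp2, which was below the median of all genes, 0.54. Bmp6, Bmp4 and Bmp8b lay near the middle of all genes, with SDs of 0.73, 0.64 and 0.52.

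Depots were compared with edgeR's quasi-likelihood test in 1 fit of all 12 libraries, and calls were made at 0.05 after Benjamini-Hochberg adjustment over the 19154 genes that were tested. Bmp8a, with 80.7 counts in all libraries together, and Fgf21, with 35, did not pass the filter on low counts, which left 8 of the 10 genes. In the test for any difference among the 4 depots edgeR called 0 of the 8, where it called 0.512% of all genes. At an unadjusted p under 0.05 there were 2, Bmp3 and Bmp5, beside 17.1% of all genes. limma-voom called 0 as well, beside 0.12% of all genes. DESeq2, which does not apply this filter, called 3 of 10 (Bmp3, Bmp5 and Bmp8a), where it called 11.1% of all genes. For BAT against EWAT, edgeR again called 0 of 8, beside 0.783% of all genes, and limma-voom called 0, beside 0.0992%. At an unadjusted p under 0.05 there were 4 (Bmp3, Bmp5, Bmp6 and Bmp7), beside 27.7% of all genes. DESeq2 called Bmp3 and Bmp8a there, 2 of 9 tested, beside 15.8% of all genes. For IWAT against EWAT, edgeR called 0 of 8, beside 0.345% of all genes, and Bmp3 was the 1 gene at an unadjusted p under 0.05, beside 16.2% of all genes. limma-voom called 0, beside 0.131% of all genes, and DESeq2 called 2 of 9, Bmp3 and Bmp8a, beside 6.57%.

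In the remaining comparisons edgeR, limma-voom and DESeq2 each called 0 of the genes they tested. edgeR called 0.0992% of all genes for BAT against the white mean, the average of the fitted levels of EWAT, IWAT and RWAT. It called 0.0104% for BAT against IWAT, 0.0574% for BAT against RWAT, 0.0418% for EWAT against RWAT and 0% for IWAT against RWAT. In the same order, DESeq2 called 4.76%, 0.731%, 1.72%, 3.51% and 0.697% of all genes. limma-voom called 0.0157%, 0.0104%, 0.00522%, 0.0418% and 0%. At an unadjusted p under 0.05, Bmp5 was the 1 gene of the 8 for BAT against the white mean (18.1% of all genes), BAT against IWAT (3.85%) and IWAT against RWAT (4.42%), and Bmp3 the 1 gene for EWAT against RWAT (9.04%). For BAT against RWAT there were 0 of the 8, beside 14.8% of all genes.

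All BAT libraries lay outside the range of all EWAT libraries in TMM-scaled CPM for 5 of the 10 genes (Bmp3, Bmp5, Bmp6, Bmp7 and Bmp8a), each higher in BAT, and so did 36.8% of all genes tested. For IWAT against EWAT this held for 2 of the 10, Bmp3 and Bmp8a, beside 25% of all genes. It held for 3 genes (Bmp5, Bmp8a and Bmp8b) for IWAT against RWAT, beside 6.68%, and for 1 gene for BAT against IWAT (Bmp5, beside 6.76%) and for BAT against RWAT (Bmp8a, beside 16.8%). Bmp8a was not among the genes tested, over which these shares were taken. Of the 8 tested genes the numbers were 4 for BAT against EWAT, 1 for IWAT against EWAT, 2 for IWAT against RWAT and 0 for BAT against RWAT. No gene of the 10 separated EWAT from RWAT, where 14.8% of all genes did, or BAT from all 9 white libraries, where 1.24% did. In TPM, which are not TMM-scaled, Bmp3, Bmp6, Bmp7 and Bmp8a still separated BAT from EWAT, while Bmp5 did not.

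**Figure D2:**
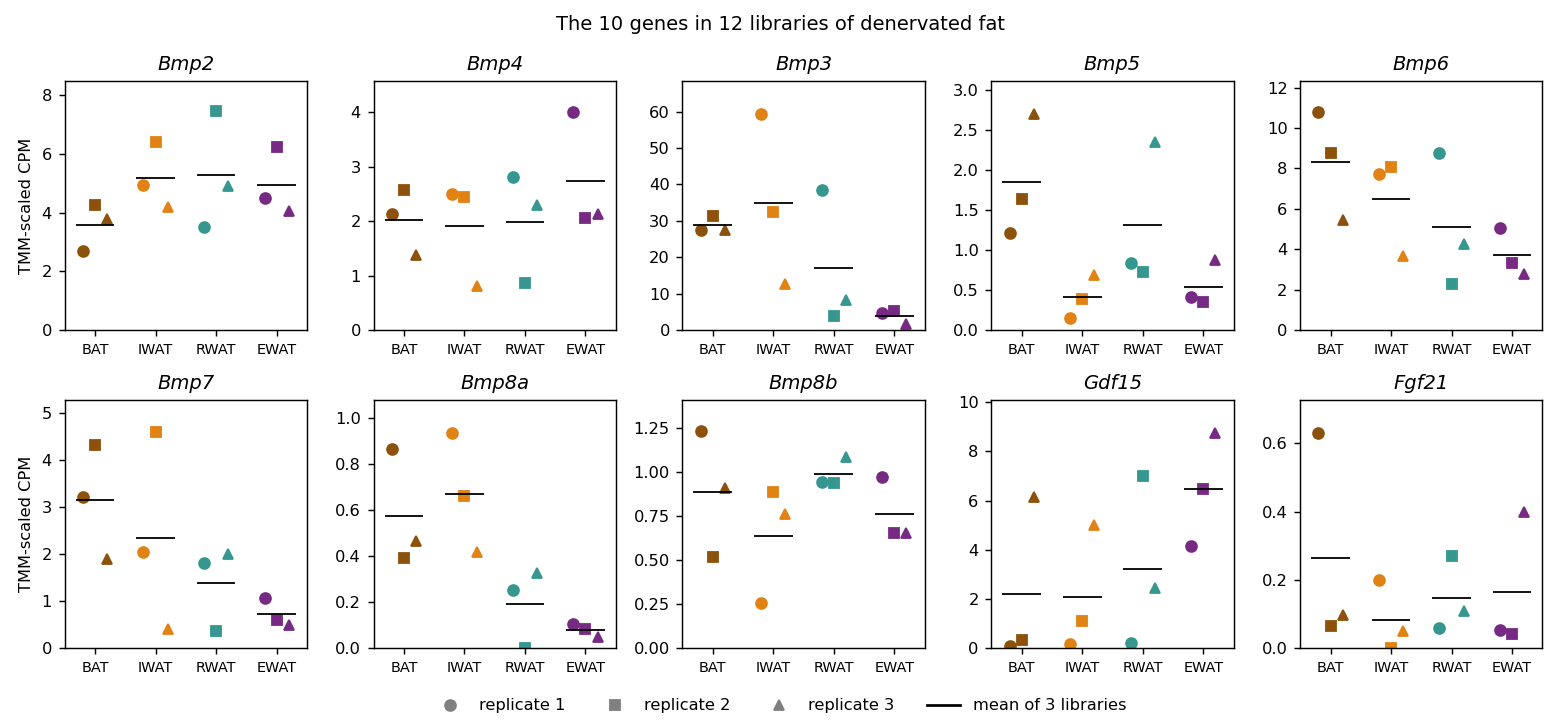
TMM-scaled CPM of each gene in the 12 libraries, with 1 panel per gene on its own linear axis starting at 0, symbols for replicate numbers and lines for the mean of 3 libraries. Bmp3 lies between 1.75 and 5.33 CPM in EWAT and between 27.5 and 31.2 in BAT, while Gdf15 spans 0.0787 to 6.16 within BAT alone.

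The ligands that commit precursors to the fat lineage were not called in any comparison or alternative. Bmp2 (chromosome 2, 133552159 to 133562885, plus strand) measured 2.68, 4.25 and 3.77 CPM in BAT 1 to 3, 4.48, 6.25 and 4.05 in EWAT, 4.93, 6.43 and 4.18 in IWAT, and 3.51, 7.48 and 4.89 in RWAT. Its order was RWAT, IWAT, EWAT and BAT, and each neighbouring pair of depots overlapped, as did the highest and the lowest. BAT against the white mean was -0.52 ± 0.29 on the log2 scale (edgeR, adjusted p = 0.335). Bmp4 (chromosome 14, 46383520 to 46390669, minus strand) measured 2.13, 2.57 and 1.38 CPM in BAT, 4.0, 2.07 and 2.12 in EWAT, 2.50, 2.44 and 0.801 in IWAT, and 2.81, 0.861 and 2.30 in RWAT. All depots overlapped for Bmp4, and its largest difference, EWAT above IWAT, came to -0.51 ± 0.55 for IWAT against EWAT (edgeR, adjusted p = 0.65).

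Bmp3, which binds activin type II receptors and is known for opposing the signals of other BMPs, was the gene with the widest depot difference. Bmp3 (chromosome 5, 98854415 to 98884396, plus strand) measured 27.5, 31.2 and 27.6 CPM in BAT 1 to 3 and 4.56, 5.33 and 1.75 in EWAT. In IWAT it measured 59.3, 32.5 and 12.6 CPM, and in RWAT 38.6, 3.93 and 8.25. The BAT libraries were close together, IWAT and RWAT each spread widely with replicate 1 on top, and EWAT lay below both BAT and IWAT without overlap. RWAT 1 sat among the BAT and IWAT libraries, whereas RWAT 2 fell within the EWAT range. BAT against EWAT was 2.89 ± 0.83 on the log2 scale, a 7.39-fold difference (edgeR, adjusted p = 0.0782). IWAT against EWAT was 3.16 ± 0.84, or 8.93-fold (edgeR, adjusted p = 0.125). Across 22 alternative settings these differences ran from 2.37 to 3.18 and from 2.54 to 3.57, and the adjusted p from 0.00396 to 0.219 and from 0.00251 to 0.353. Without RWAT 1 the BAT against EWAT difference was called, with an adjusted p of 0.0427 in edgeR, where 6.86% of all genes were called. Without EWAT 1 and RWAT 3, the white libraries with epididymis or muscle genes, it was 3.03 with an adjusted p of 0.119, a setting chosen after seeing the data.

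Bmp5, Bmp6 and Bmp7 form 1 branch of the BMP family with Bmp8a and Bmp8b. Bmp5 (chromosome 9, 75775364 to 75900310, plus strand) measured 1.21, 1.64 and 2.70 CPM in BAT 1 to 3 and 0.406, 0.348 and 0.874 in EWAT. In IWAT it measured 0.154, 0.385 and 0.690 CPM, and in RWAT 0.841, 0.731 and 2.35. In CPM all BAT libraries lay above all EWAT and IWAT libraries, and RWAT 3 reached into the BAT range. In TPM, BAT (0.2 to 0.91) overlapped EWAT (0.13 to 0.53) and IWAT (0.12 to 0.31). RWAT then had the highest mean, 0.847 TPM against 0.523 in BAT. BAT against IWAT was 2.17 ± 0.67 (edgeR, adjusted p = 0.733), BAT against EWAT was 1.77 ± 0.65 (adjusted p = 0.12) and BAT against the white mean was 1.49 ± 0.48 (adjusted p = 0.178). The fitted difference of IWAT against RWAT, -1.66 ± 0.66 (edgeR, adjusted p = 0.871), became -0.93 without EWAT 1 and RWAT 3. Bmp5 overlaps an antisense gene, Gm26903, on the other strand for 45.7% of its 75-base windows. Gm26903 had 79.6 counts in all libraries against 226 for Bmp5, and whether reads were counted by strand is not given in the sources used here, so its values are uncertain.

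Bmp6, known in the liver as the signal that raises the iron hormone hepcidin, had a highest library 3.11 times the lowest in TPM and 4.79 times in TMM-scaled CPM. Bmp6 (chromosome 13, 38345107 to 38500302, plus strand) measured 10.8, 8.77 and 5.43 CPM in BAT 1 to 3 and 5.07, 3.30 and 2.75 in EWAT. In IWAT it measured 7.72, 8.09 and 3.66 CPM, and in RWAT 8.75, 2.25 and 4.24. BAT lay above EWAT without overlap, and the difference was 1.17 ± 0.51, or 2.24-fold (edgeR, adjusted p = 0.172). Its far end overlaps an exon of Txndc5 on the opposite strand, a gene with 39674 counts in all libraries, over 3.92% of its windows.

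Bmp7, the ligand linked to brown adipocyte formation, followed the same order of depots as Bmp6: BAT, IWAT, RWAT and EWAT. Bmp7 (chromosome 2, 172868012 to 172940321, minus strand) measured 3.22, 4.33 and 1.91 CPM in BAT 1 to 3 and 1.07, 0.599 and 0.501 in EWAT. In IWAT it measured 2.04, 4.60 and 0.413 CPM, and in RWAT 1.81, 0.36 and 2.01. BAT lay above EWAT without overlap, but IWAT 2 was the highest library of all and IWAT 3 among the lowest. BAT against EWAT was 2.12 ± 0.83, or 4.36-fold (edgeR, adjusted p = 0.136). For Bmp6 and Bmp7 the direction of BAT against EWAT held in all 22 alternatives, with differences of 0.58 to 1.49 and 1.58 to 2.51.

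**Figure D3:**
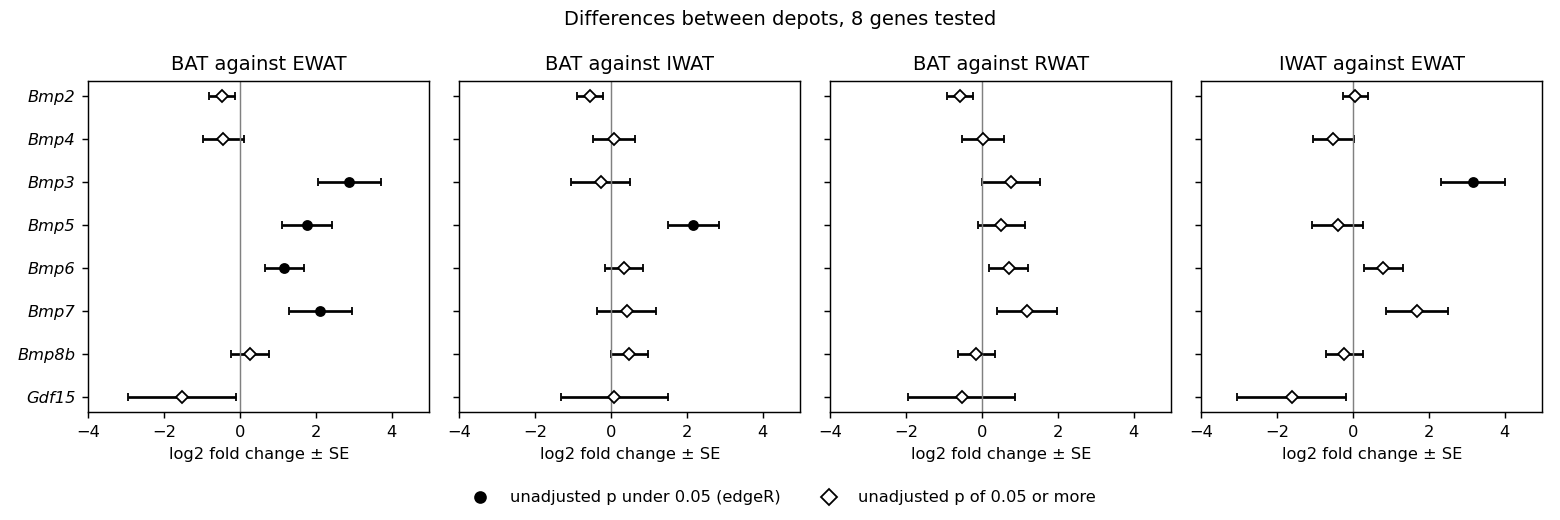
Fitted log2 fold change ± SE from edgeR of the 8 tested genes in 4 comparisons of depots, with filled circles for an unadjusted p under 0.05. Bmp3, Bmp5, Bmp6 and Bmp7 lie to the right of 0 for BAT against EWAT, with 2.89 for Bmp3, and the bars of Gdf15 are the widest, with an SE of 1.42.

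Bmp8a and Bmp8b are neighbouring copies on chromosome 4, from 123312645 to 123343252 on the minus strand and from 123105165 to 123132099 on the plus strand. Their coding sequences are 85.5% identical over 1244 aligned positions. They share 159 windows of the 75-base read length, 6.62% of the windows of Bmp8a and 4.18% of those of Bmp8b, from which a read could not be placed in 1 of them by sequence alone. The longest stretch of coding sequence that both hold without a difference is 182 bases, positions 451 to 632 from the first base of the start codon in each, printed here because reads inside it belong to either gene.
Bmp8a and Bmp8b: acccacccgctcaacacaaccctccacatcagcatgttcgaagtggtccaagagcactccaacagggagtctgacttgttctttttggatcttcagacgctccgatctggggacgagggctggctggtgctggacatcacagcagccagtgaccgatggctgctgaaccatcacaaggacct
Bmp8a had 11, 6 and 9.58 counts in BAT 1 to 3, 2, 2 and 1 in EWAT, 18.8, 12 and 8 in IWAT, and 4.26, 0 and 6 in RWAT. The 0 in RWAT 2 allows up to 3 counts, or 0.165 CPM before TMM scaling, for counting error only. In CPM, Bmp8a was 0.576 ± 0.254 in BAT and 0.673 ± 0.26 in IWAT, against 0.0804 ± 0.0281 in EWAT and 0.193 ± 0.171 in RWAT (SD, n = 3). Both BAT and IWAT lay above EWAT and above RWAT without overlap, and EWAT rested on 5 counts in all. DESeq2 gave an adjusted p of 0.0355 for BAT against EWAT and 0.0381 for IWAT against EWAT. Bmp8b showed no such order: it measured 1.23, 0.518 and 0.910 CPM in BAT, 0.972, 0.651 and 0.652 in EWAT, 0.259, 0.886 and 0.762 in IWAT, and 0.945, 0.938 and 1.08 in RWAT. RWAT was the highest depot for Bmp8b and lay above IWAT without overlap, but IWAT against RWAT was -0.64 ± 0.49 (edgeR, adjusted p = 0.871). The summed count of both genes, which does not depend on how reads shared by them were split, stayed between 13.9 and 28.2 counts per library. Bmp8b also overlaps Ppie and Gm17244 on the opposite strand, over 6.88% of its windows in all.

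Gdf15 differed more between libraries of a depot than between depots. Gdf15 (chromosome 8, 70629393 to 70632456, minus strand) measured 0.0787, 0.327 and 6.16 CPM in BAT 1 to 3, from 1, 5 and 126 counts, and 4.17, 6.47 and 8.75 in EWAT. In IWAT it measured 0.199, 1.11 and 5.01 CPM, and in RWAT 0.238, 6.98 and 2.45. EWAT was the only depot in which all 3 libraries were high, and BAT, IWAT and RWAT each held low and high libraries, with replicate 1 lowest in all 4 depots. All pairs of depots overlapped, and EWAT against RWAT was 0.99 ± 1.40 (edgeR, adjusted p = 0.879). BAT against EWAT was -1.53 ± 1.42 (edgeR, adjusted p = 0.479) and -4.82 without BAT 3 (adjusted p = 0.0728). BAT against IWAT was 0.09 ± 1.41 (edgeR, adjusted p = 0.999), with -3.22 without BAT 3 and 1.77 without IWAT 3, so that a single library set its direction.

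Fgf21 was at the limit of detection. It had 8, 1 and 2 counts in BAT 1 to 3, 1, 1 and 8 in EWAT, 4, 0 and 1 in IWAT, and 1, 6 and 2 in RWAT. Of the 12 libraries 8 held 3 counts or fewer, the highest level was 0.63 CPM in BAT 1, and a depot difference was not detectable at this depth. The 0 in IWAT 2 allows up to 0.151 CPM before TMM scaling. With no filter on low counts, edgeR gave BAT against the white mean an adjusted p of 0.748.

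The promoters of both hormone genes were read from RefSeq (GRCm38.p6), which matched 7 of the 10 genes, because both hormones are known targets of the integrated stress response. The 250 bases before the start are shown on the strand of the gene, with capitals for matches to TGATGNAA, the element bound by stress response factors of the C/EBP and ATF families, and to TATAAA, searched on both strands. The Fgf21 promoter is chr7:45615491-45615740 and that of 1 of the 2 Gdf15 starts listed chr8:70632457-70632706, both minus strand.
Fgf21: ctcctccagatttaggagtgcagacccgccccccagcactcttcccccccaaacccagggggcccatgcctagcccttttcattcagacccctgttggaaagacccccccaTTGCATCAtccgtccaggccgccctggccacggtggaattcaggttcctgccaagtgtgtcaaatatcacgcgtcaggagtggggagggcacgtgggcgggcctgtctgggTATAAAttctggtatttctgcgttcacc
Gdf15: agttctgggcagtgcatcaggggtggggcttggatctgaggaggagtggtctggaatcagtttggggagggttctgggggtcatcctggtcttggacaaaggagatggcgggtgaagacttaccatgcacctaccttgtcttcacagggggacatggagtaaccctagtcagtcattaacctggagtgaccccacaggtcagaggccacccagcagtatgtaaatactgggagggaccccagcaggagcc
The Fgf21 window holds a TGATGNAA match on the opposite strand, beginning 139 bases before the start, and TATAAA beginning 28 bases before it. The Gdf15 window holds neither string, nor does the window at a second Gdf15 start in the table. Of the other 5 genes searched, Bmp5 holds a TGATGNAA match, beginning 249 bases before its start. Of 32851 promoters of this length, 3.45% hold TGATGNAA and 12.4% hold TATAAA. A match is a description of letters and not a site.

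Levels of several genes moved with those of cell type markers across the 12 libraries, which share their sequencing library and depth with the markers, and the part of the cell types in the results was not tested. The figures here are rank correlations over 12 libraries, 120 in all for 10 genes and 12 measures, given as descriptions. Gdf15 and the summed level of 10 macrophage markers had a Spearman's rho of 0.88. The macrophage sum was 1056, 1394 and 5129 CPM in BAT 1 to 3, 5496, 7477 and 6699 in EWAT, 1721, 2919 and 5483 in IWAT, and 1887, 5199 and 4771 in RWAT. Within a depot the order of Gdf15 was the order of the macrophage sum in 3 of 4 depots and of the lymphocyte sum in 4 of 4, with a rho of 0.85 for the latter. Most of the lymphocyte sum was the single gene Ptprc in every library, with 30.0 of 38.7 CPM in BAT 1 and 246 of 261 in BAT 3. The lymphocyte values therefore describe Ptprc more than the B and T cell markers of that list. The rho of Gdf15 was -0.71 with both the adipocyte sum and the mitochondrial percentage. It was -0.92 with the summed level of 8 Schwann cell markers, which ran from 136 to 364 CPM.

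Bmp3 had a rho of 0.85 with the adipocyte sum, 0.83 with the Schwann cell sum and 0.71 with the mitochondrial percentage. The adipocyte sum was 36171, 41954 and 15613 CPM in BAT 1 to 3, 9987, 11747 and 5884 in EWAT, 45481, 40473 and 11023 in IWAT, and 32963, 5199 and 4770 in RWAT. Both Bmp3 and the adipocyte sum were high in RWAT 1 and low in RWAT 2 and RWAT 3, and the within-depot order was the same in 2 of 4 depots. BAT 3 had the Bmp3 level of the other BAT libraries with less than their adipocyte sum. Bmp6 had a rho of 0.90 with the Schwann cell sum, 0.88 with the mitochondrial percentage, 0.78 with the adipocyte sum and -0.86 with the macrophage sum. Bmp7 had 0.69, 0.71, 0.71 and -0.77 with the same measures. Bmp8a had 0.87 with the brown adipocyte sum, 0.82 with the Schwann cell sum and 0.74 with the mitochondrial percentage. Bmp5 had a rho of 0.74 with the skeletal muscle sum, and the 4 libraries rich in muscle markers, BAT 1 to 3 and RWAT 3, were the 4 highest for Bmp5. Within no depot did the order of Bmp5 follow the muscle sum, and in BAT it ran the opposite way, from 1.21 CPM in BAT 1 to 2.70 in BAT 3.

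**Figure D4:**
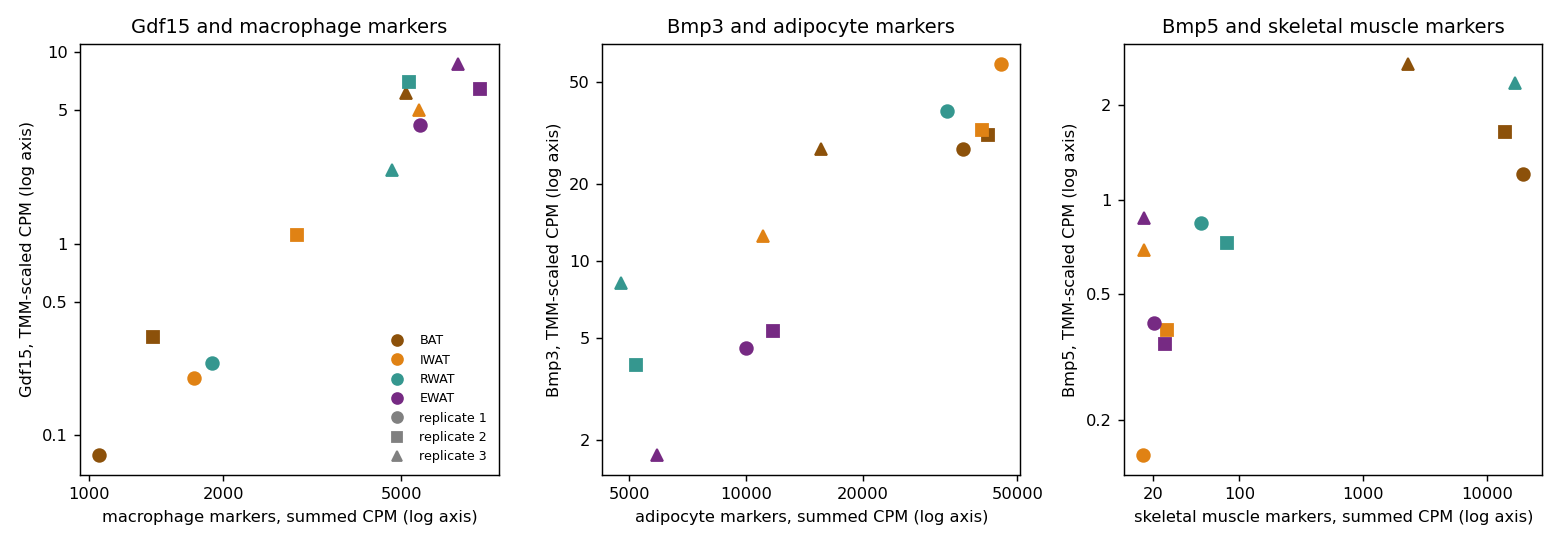
Gdf15, Bmp3 and Bmp5 (TMM-scaled CPM) against the summed level of macrophage, adipocyte and skeletal muscle markers in the 12 libraries, on log axes, with colours for depots and symbols for replicate numbers. Gdf15 is highest, up to 8.75 CPM, where macrophage markers exceed 4770 CPM, and Bmp3 is highest, 59.3 CPM, in the library with the most adipocyte marker RNA.

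Among the genes themselves, Pearson correlations of log2 CPM over the 12 libraries were 0.89 for Bmp6 and Bmp7, 0.86 for Bmp3 and Bmp6 and 0.76 for Bmp3 and Bmp7. Gdf15 ran opposite to all of them, with -0.90 for Bmp6, -0.79 for Bmp3 and -0.74 for Bmp7. Bmp4 had 0.54 with both Bmp6 and Bmp7 and 0.17 with Bmp3. Bmp2 had -0.53 with Bmp6, -0.32 with Bmp3 and 0.45 with Gdf15. Bmp5 and Bmp8b had 0.53 with each other and between -0.23 and 0.22 with Bmp3, Bmp6, Bmp7 and Gdf15. The 2 most similar genes by the same measure, among about 12315 named genes with a mean log2 CPM of at least 1, were Tgfbr3 (0.978) and Ifi27l2a (0.97) for Bmp3. Tgfbr3 encodes betaglycan, a co-receptor of the wider family. For Gdf15 they were Plekho1 (0.993) and Fyb (0.992), the latter an adaptor of blood cells. For Bmp6 they were P2rx6 (0.969) and Slc2a4 (0.967), the insulin-regulated glucose transporter, and for Bmp7 Adamtsl4 (0.969) and Zfp30 (0.942). Bmp5 was most like the striated muscle genes Xirp2 (0.826) and Atp2a1 (0.825), and Bmp2 most like Kif2a (0.882) and Magi3 (0.844). Bmp4 was most like Il17re and Efna5 (0.885 each), and Bmp8b most like Helq (0.842) and Zfp827 (0.821).

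The receptors, transducers, inhibitors and targets through which these ligands act were measured in 10 lists of 115 genes, of which 97 were tested. edgeR called 1 of the 97 in any comparison, the BMP family ligand Gdf6, lower in BAT than in EWAT, while limma-voom called 0. DESeq2 called 23 genes of the lists in at least 1 of the 8 comparisons. In single comparisons it called 15.8% of all genes for BAT against EWAT and 11.1% for any depot. The share of all genes called over the 8 comparisons together is not given for either tool, so the 1 and the 23 have no background share beside them. Gdf6 measured 0.01, 0.08 and 0.04 TPM in BAT 1 to 3, 2.62, 1.09 and 1.73 in EWAT, 0.13, 0.2 and 0.43 in IWAT, and 0.11, 0.3 and 1.33 in RWAT, so that EWAT and BAT did not overlap. The fitted log2 difference, which depends on the prior count since BAT was near 0, was -4.82 ± 0.91 for BAT against EWAT (edgeR, adjusted p = 0.0485). It was called in 13 of 22 alternatives, and not without BAT 1, BAT 2, EWAT 2, EWAT 3, RWAT 2 or any 1 of the IWAT libraries, where the adjusted p ran from 0.0544 to 0.203. The direction was opposite to that of Bmp3, Bmp5, Bmp6 and Bmp7, whose values were higher in BAT.

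In BAT against EWAT the median log2 difference was -0.08 over all genes tested. It was 0.35 over the 12 BMP receptors and co-receptors, 0.11 over the 6 SMAD transducers and 0.02 over 11 BMP targets, none of them called by edgeR. DESeq2 called 3 of the 12 receptors and co-receptors, 1 of the 6 SMADs and 4 of the 11 targets there, beside 15.8% of all genes. The most abundant target, Id3, was level, with 38.8 CPM in BAT, 38.1 in EWAT, 37.4 in IWAT and 42.8 in RWAT on average. The 4 targets that DESeq2 called were Id1, Msx1 and Smurf2, higher in BAT than in EWAT, and Id4, lower. For these 4 the adjusted p in edgeR ran from 0.0595 (Msx1) to 0.118 (Smurf2), and limma-voom called 0 of the 11 targets. Id1 averaged 22.4 CPM in BAT and 12.1 in EWAT, and Id4 averaged 1.27 and 2.51. Among 14 extracellular antagonists and modulators, with a median of -0.11 and 0 called (3 of 16 by DESeq2), the follistatin-like protein Fstl1 was the most abundant at a mean of 387 TPM, and among 6 activins and TGF-beta ligands, with a median of -1.36 and 0 called (1 of 5 by DESeq2), it was Tgfb1 at 36.8 TPM. Gdf10 led the other BMP family ligands with a mean of 12.5 TPM, above the mean of each of the 10 genes described here, and Tgfbr3 the co-receptors with 57.9. The numbers at an unadjusted p under 0.05 for BAT against EWAT were 4 of 12 receptors, 1 of 6 SMADs, 4 of 14 antagonists, 4 of 11 targets and 4 of 6 activins and TGF-beta ligands, where 27.7% of all genes were.

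On the side of the hormones, edgeR called 0 of the 5 tested FGF21 and GDF15 receptor genes in any comparison, as did DESeq2 and limma-voom, and 1 of the 5 had an unadjusted p under 0.05 for BAT against EWAT. Fgfr1 averaged 89.5 TPM. Klb, chosen after its values were seen, averaged 16.1 TPM and ran from 2.94 in RWAT 3 to 32.1 in RWAT 1, so RNA for both parts of the Fgf21 receptor was measured in every library that held next to no Fgf21. Gfral, also chosen after its values were seen, had 1 count in all 12 libraries. Of 18 integrated stress response genes edgeR called 0 for BAT against EWAT, with a median of 0.24 and 5 at an unadjusted p under 0.05, and DESeq2 called 2 of 18. These shares were near those of all genes, 27.7% at an unadjusted p under 0.05 in edgeR and 15.8% called by DESeq2. The serine synthesis enzyme Phgdh was the most abundant of them at 101 TPM on average. Of 11 genes that respond to FGF signals and 7 other FGF ligands tested, edgeR called 0 for BAT against EWAT, with 2 and 3 at an unadjusted p under 0.05. DESeq2 called 2 of the 11 and 3 of the 8 FGF ligands that it tested. The most abundant of these were Spred1 at 27.5 TPM and Fgf2 at 14.3 TPM.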

How the data were processed

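The 12 libraries were made from total RNA depleted of ribosomal RNA and sequenced as single-end reads of 75 bases, per the labels' protocols. The submitters' processing notes list Trimmomatic 0.36, RSEM 1.3.0, DESeq2 1.10.1 and the build GRCm38.p4. The strand setting, the aligner and the annotation were not given in the sources used here. Deposited by the authors were expected counts per gene from RSEM, not normalised, together with TPM and FPKM computed by the authors, per the file headers.

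Expected counts were rounded, filtered with filterByExpr, scaled by TMM and tested with edgeR 4.0.16 (R 4.3.3) in 1 fit of 12 libraries. DESeq2 1.42.0, limma-voom (limma 3.58.1), other scalings, filters and counts, a replicate block, pairs of depots fitted alone and the omission of each library were alternatives. Scripts were tested on simulated data. FPKM were used only to check the order of the genes, which was that by TPM in 12 of 12 libraries. Within a library the 2 measures differ only by a scale factor, so this checks the reading of the values and not the ranking. No 2 libraries held identical values. Of the 47729 gene identifiers, 47310 matched the annotation. A count of 0 allows up to 3 counts, or 0.191 CPM in the smallest library.

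The genes and lists were chosen with earlier results of these data known. All 10 genes are named whatever their values. A pathway list is represented by the genes edgeR called, at most 2 in each direction by size of change, or if it has none by the gene of highest mean TPM. For likeness the 2 genes with the highest correlation are named, leaving out predicted genes. Named outside this rule, with values known, were Klb and Gfral, Gdf10 for its mean TPM, and the targets that DESeq2 called, Id1, Id4, Msx1 and Smurf2.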

Additional observations from a re-analysis of the deposited data

How the results depend on the processing

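Of the 22 alternatives, 21 of which apply to the test for any depot, most called 0 of the 10 genes, as the main analysis did. DESeq2 called 3 for any depot, 2 for BAT against EWAT and 2 for IWAT against EWAT. BAT and EWAT fitted alone in edgeR gave 1, Bmp3 (adjusted p = 0.0257), beside 5.81% of all genes. With each library left out in turn the number was 0 to 1 for BAT against EWAT and 0 in every other comparison. The labels do not say whether a replicate number marks a shared animal or batch. Same-numbered deviations correlated between -0.347 and 0.677, over 0.1 in 10 of 18 pairs and so not in every pair, and 7 of 12 libraries correlated best with their own number. In all 4 depots replicate 1 had the lowest TMM factor, the highest mitochondrial percentage and the lowest macrophage sum and Gdf15 level, and replicate 3 the lowest adipocyte sum. With the replicate number as a block edgeR called 2 genes for BAT against EWAT (Bmp3, adjusted p = 0.0238, and Bmp5, 0.0265), beside 18.5% of all genes. For BAT against the white mean the block gave 1 (Bmp5, edgeR, adjusted p = 0.0459), beside 3.39% of all genes. Leaving out EWAT 1 and RWAT 3, chosen after seeing the data, gave 0 genes. Of all genes that setting called 5.87% for any depot, 6.54% for BAT against EWAT, 5.17% for IWAT against EWAT and 1.15% for BAT against the white mean. No fitted difference with an unadjusted p under 0.05 changed direction in any alternative; the cause of the changed calls was not tested.

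Counts over all genes moved far more. For BAT against EWAT 150 genes were called, against 3434 with DESeq2, 3542 with the block, 1051 for the pair alone, 19 with limma-voom, 233 without TMM, and 6 to 1996 with 1 library left out. For any depot 98 were called, against 2502, 171 with the block, 23 with limma-voom, 145 without TMM, 436 without a filter on low counts, and 11 to 1054. Without TMM the median of all genes for BAT against EWAT moved from -0.08 to -0.60. Of the genes described here, 1 then had an unadjusted p under 0.05 in edgeR for BAT against EWAT, against 4 with TMM. The share of all genes at that threshold without TMM is not given. Median levels under 1 CPM, as for Bmp5, Bmp8a, Bmp8b and Fgf21, rest on few counts, so depth limits the differences that are detectable.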
